A study of Mus musculus with 19 samples.

Results

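Carbonic anhydrase 3 (Car3) and 9 further genes that fat cells are known for (Adipoq, Retn, Lep, Cfd, Fabp4, Plin1, Plin4, Cidec and Pck1) were followed across the ventral (VP) and dorsolateral (DLP) lobes of the prostate in mice fed a control diet or one high in fat. The 10 genes were proposed with the diet pattern of Car3 and the high values on single arrays already known. The difference between the diets is therefore given for them as a description, with no test, and the difference between the lobes, which did not choose them, is tested. A gene was measured where the platform annotation gave a probe set to that gene alone, and the probe set with the highest mean over 19 arrays stood for it. This held for 8 of the 10 genes, of 18193 genes with such a probe set in all. Plin1 and Cfd are not analysed here.

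Total RNA of each sample was labelled with biotin and hybridised to 1 array. All animals were C57BL/6J mice, with 5 per diet, aged 8 weeks at the start of 12 weeks of feeding, and no transgene or drug is named in the labels. By title there were 4 groups, with 5 of control VP, 5 of high fat VP, 5 of control DLP and 4 of high fat DLP. The labels do not say which mouse each sample was taken from, so the p-values cover the spread among these arrays and may miss that among mice. The anterior lobe was not analysed here.

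Fat cells store triglyceride in a lipid droplet. Perilipins (Plin1, Plin4) and Cidec coat that droplet or control its size, and Fabp4 carries fatty acids in the cytosol. The cells release the hormones adiponectin (Adipoq), leptin (Lep) and, in mice, resistin (Retn), together with the protease adipsin (Cfd). Pck1 makes glycerol for triglyceride in fat and glucose in liver. Car3 is a cytosolic enzyme that is abundant in fat cells, in slow skeletal muscle and in liver. The prostate lies beside fat depots in the abdomen, and its own epithelium, vessels and immune cells can also express some of these genes, such as Fabp4 in capillary endothelium and macrophages.

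Levels are log2(linear value + 1) of the deposited array values, so a difference of 1 is a 2-fold difference on that scale. The median of every array lay at 1.85 and its 75th percentile at 3.46. All 19 arrays hold the same set of sorted values, so a level reports the rank of a probe set on its array, and a shift common to most genes cannot be seen. The log base was inferred, and every fold rests on it. Levels below the array median are near the background of such arrays and carry little information on fold size. The tissue labels matched the probasin gene Pbsn, a secretory product of prostate epithelium, whose group means lay between 10.3 and 12.58. It varied widely among the VP arrays, with an SD of 1.83 in the control and 1.76 in the high fat VP. In each DLP group the SD was 0.15, and the lowest level on any array was 7.4. Among the 4 groups, means of Tgm4, a DLP-rich secreted transglutaminase, were 1.73 and 1.82 in the VP and 12.53 and 12.66 in the DLP.

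Only 3 of the 8 measured genes passed the filter on low values, which asked for a level above the array median on at least 4 arrays. Among all genes 64.5% passed. Fabp4 and Plin4 lay above the median on 19 of 19 arrays and Car3 on 12. Adipoq did so on 1 array, and Retn, Cidec, Lep and Pck1 on none. Other genes known from fat cells were mixed on this measure. Of 16 measured regulators and receptors, 3 never lay above the median, among them the nuclear receptor Pparg (group means of 0.67 to 0.81), and 10 to 12 lay above it on any array, such as the transcription factors Cebpb and Klf15 on 19 arrays and Cebpa on 15. Of 14 lipid droplet and lipolysis genes 10 lay above it on each array and 4 never did. Many of these genes are also expressed outside fat. By array, control VP 4 and high fat VP 3 stood farthest from the others of their group over all 11728 tested genes, with a root mean square difference of 0.34 and 0.38 from the mean of the others, against 0.25 to 0.29 for the other control VP arrays and 0.23 to 0.31 for the other high fat VP arrays. Control DLP 4 did not stand apart in this way (0.2, against 0.21 to 0.27). Fewer fat cells and less RNA per cell cannot be told apart in such tissue samples.

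**Figure D1:**
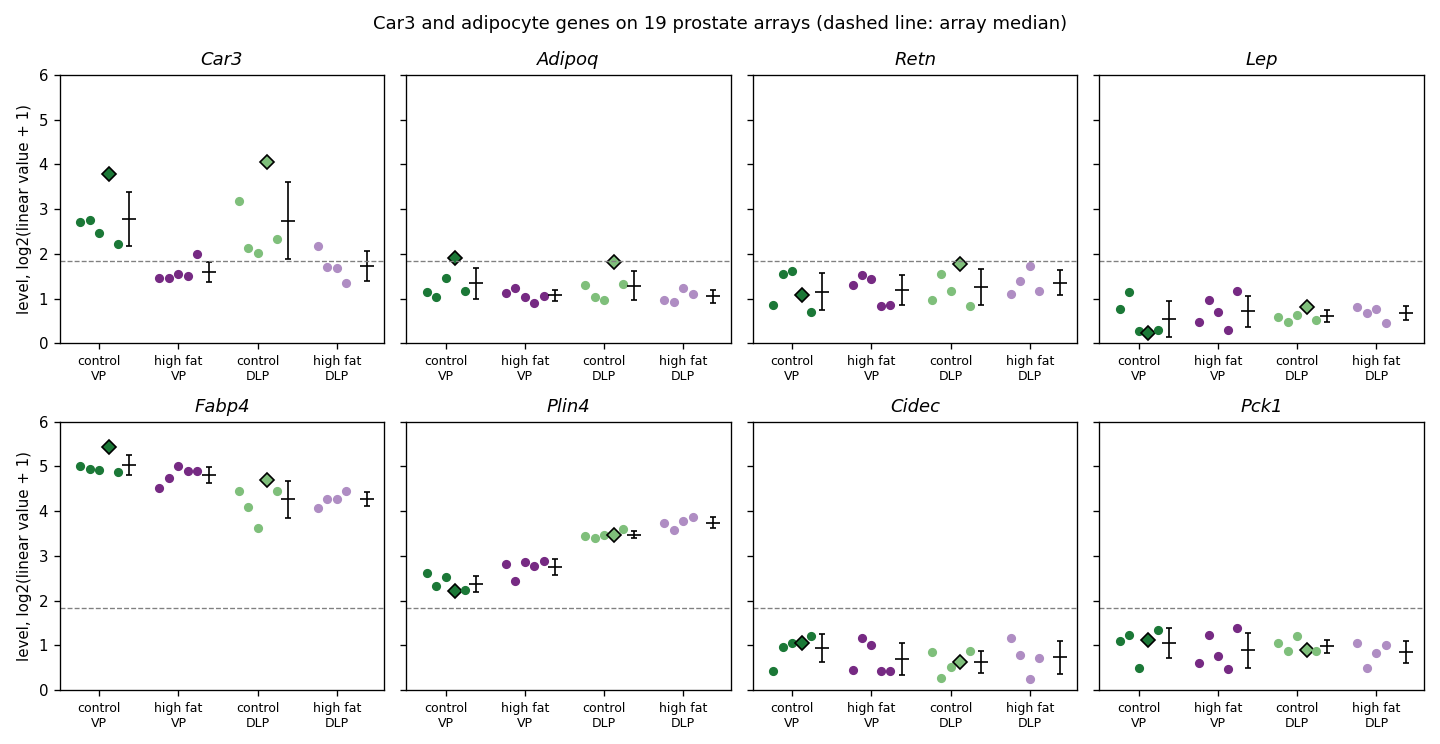
Each panel plots the log2 level of 1 gene (y axis) on each array in the 4 groups of diet and lobe (x axis), with black bars for the group mean ± SD, diamonds for the control arrays numbered 4, and a dashed line at the array median of 1.85. Car3 is lower in both high fat groups, Plin4 is higher in the DLP than in the VP, and Retn, Lep, Cidec and Pck1 stay below the dashed line on all 19 arrays.

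Car3 was lower in high fat than in control mice, in the VP and in the DLP. In the control VP its levels were 2.71, 2.75, 2.47, 3.79 and 2.21, and in the high fat VP they were 1.46, 1.47, 1.55, 1.51 and 1.99. The 2 groups did not overlap, and 4 of the 5 high fat VP arrays lay below the array median. This diet pattern was known when Car3 was proposed, and the share of all genes without overlap is not given here. The lack of overlap is therefore a description only. In the control DLP its levels were 3.18, 2.14, 2.01, 4.05 and 2.34, and in the high fat DLP they were 2.18, 1.71, 1.69 and 1.34. These groups overlapped, since high fat array 1 (2.18) lay above control arrays 2 and 3, and the other 3 high fat arrays lay below every control array.

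The mean of Car3 was 2.79 ± 0.6 (SD, n = 5) in the control VP and 1.6 ± 0.22 (SD, n = 5) in the high fat VP, a difference of -1.19, or 2.28-fold lower. In the DLP the means were 2.75 ± 0.86 (SD, n = 5) and 1.73 ± 0.35 (SD, n = 4), a difference of -1.01, or 2.02-fold lower. In rank terms Car3 went from a mean percentile of 65.7 to 43.5 on the VP arrays and from 64.4 to 46.5 on the DLP arrays, that is, from above the middle of the array to just below it. Both high fat means lay below the array median, so these folds rest on values near the background and their size is uncertain. Across all genes the fit (limma, Benjamini-Hochberg adjusted p under 0.05) called 1.11% of 11728 genes changed by diet in the VP and 0% in the DLP. Genes called as lower in the VP made up 0.58% of all 11728. With only the VP arrays fitted, 0 genes were called in the VP (smallest adjusted p 0.0507). In the DLP 662 genes had an unadjusted p under 0.05, and up to 5 genes were called by the alternative settings.

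Control array 4 held the highest Car3 of its group in both lobes. Without these arrays, a comparison added after seeing the data, the difference was -0.94 (1.92-fold lower) in the VP, where the other 4 control arrays had a mean of 2.54 ± 0.25 (SD). Without control VP 4 and high fat VP 3, also added after seeing the data, it was -0.93 in the VP. In the DLP it was -0.69 (1.61-fold lower), with a control mean of 2.42 ± 0.53 (SD) over 4 arrays. The size also depended on the scale and on the probe sets. With an offset of 16 in place of 1 inside the logarithm the difference was -0.30 in the VP and -0.29 in the DLP, and as a mean of the Car3 probe sets it was -0.40 and -0.38.

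Car3 has 3 other probe sets, all of lower signal. The next brightest lay above the array median on 4 arrays. It read 1.5, 1.48, 1.57, 1.87 and 1.3 in the control VP, and 1.29, 1.09, 1.58, 1.23 and 1.56 in the high fat VP. In the control DLP it read 1.85, 1.42, 1.36, 2.33 and 1.66, and in the high fat DLP 1.96, 1.15, 1.65 and 1.14. The diets overlapped in both lobes, with differences of -0.2 and -0.25, and the highest array of the 19 was again control DLP 4. The remaining pair never lay above the median and differed between the diets by -0.37 and 0.16 in the VP and by -0.05 and -0.19 in the DLP. Thus the size of the Car3 difference between the diets came from 1 probe set.

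**Figure D2:**
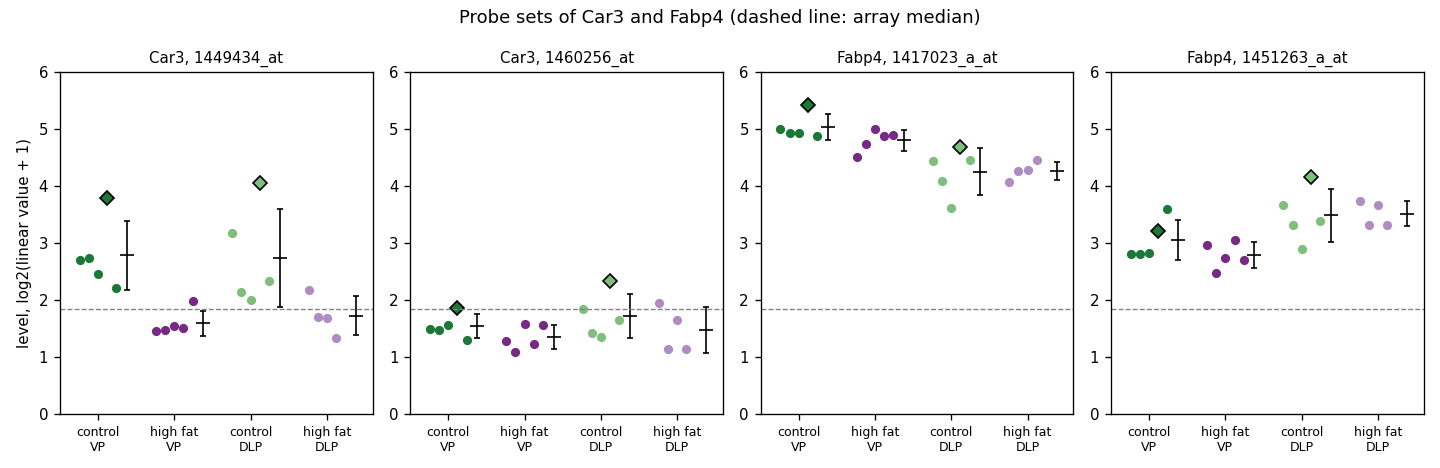
The log2 levels (y axis) of the 2 brightest probe sets of Car3 and of Fabp4 are plotted for each array by group (x axis), with bars for the mean ± SD. The 2 Car3 probe sets differ in how far the diets lie apart, and the 2 Fabp4 probe sets differ between the lobes in opposite directions.

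Between the lobes no difference in Car3 was detected. In control mice the DLP minus VP difference was -0.04 ± 0.32 (SE; 95% interval -0.72 to 0.64; limma adjusted p = 0.92), and in high fat mice it was 0.13 ± 0.34 (SE; 95% interval -0.58 to 0.85; limma adjusted p = 0.77). Exact two-sided permutation tests over the arrays gave p = 0.92 and p = 0.46. These intervals still allow differences of about the array-to-array spread, so equal levels in the 2 lobes are not shown. In the high fat groups Car3 lay above the array median on 1 of 5 VP and 1 of 4 DLP arrays. The high fat comparison is thus largely between values near the background.

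The secreted hormones lay near or below the background. Adipoq, the fat cell's most abundant hormone, read 1.15, 1.03, 1.45, 1.91 and 1.16 in the control VP and 1.13, 1.24, 1.04, 0.91 and 1.06 in the high fat VP. In the control DLP it read 1.3, 1.04, 0.97, 1.81 and 1.33, and in the high fat DLP 0.96, 0.92, 1.24 and 1.11. The diets overlapped in both lobes, and the highest value in each lobe was again on control array 4. The difference between the diets was -0.26 in the VP and -0.23 in the DLP, and -0.12 and -0.1 without the control arrays numbered 4, so its size depended on those arrays.

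Resistin (Retn) had group means of 1.16 ± 0.41 in the control VP, 1.19 ± 0.33 in the high fat VP, 1.26 ± 0.4 in the control DLP and 1.35 ± 0.28 in the high fat DLP (SD, n = 5, 5, 5 and 4). Its values ran from 0.7 to 1.77, the highest being control DLP 4, and its diet differences were 0.03 and 0.09. Leptin (Lep), the hormone that reports fat stores to the brain, had means of 0.54 ± 0.4, 0.72 ± 0.35, 0.61 ± 0.13 and 0.67 ± 0.16 in the same order of groups. Its values ran from 0.23 to 1.16, and the lowest was on control VP 4, where Car3, Adipoq and Fabp4 were at their highest for the VP. For both hormones the groups overlapped in every comparison and all values lay below the array median.

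The promoters of the 2 genes below are printed because, among the measured members over all 19 arrays, Adipoq had the deviations most like those of Car3, a likeness that rested on the control arrays numbered 4, and Plin4 showed the most certain difference between the lobes. Each is the stretch of 250 bases before the start of the gene in GRCm38.p6 from RefSeq, chr16:23146286-23146535 on the plus strand for Adipoq and chr17:56109783-56110032 on the minus strand for Plin4, and capitals mark the CCAAT box motif on either strand.
Adipoq: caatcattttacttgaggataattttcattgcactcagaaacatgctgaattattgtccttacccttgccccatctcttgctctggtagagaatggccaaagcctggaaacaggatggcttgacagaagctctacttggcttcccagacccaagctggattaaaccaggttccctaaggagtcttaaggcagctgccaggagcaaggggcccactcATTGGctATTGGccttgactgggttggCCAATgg
Plin4: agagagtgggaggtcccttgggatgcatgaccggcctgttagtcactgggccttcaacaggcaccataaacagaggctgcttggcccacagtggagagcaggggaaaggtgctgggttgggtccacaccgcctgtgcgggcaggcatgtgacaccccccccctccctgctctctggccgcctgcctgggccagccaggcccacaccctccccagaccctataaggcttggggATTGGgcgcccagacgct
Promoters in RefSeq's table were matched for 8 of the 10 genes, in 9 windows, and Car3 and Fabp4 are named only. Windows of 250 bases before to 50 after the start were searched on both strands for the TATA box TATAAA, the CCAAT box, the C/EBP motif TTGCNNAA, the nuclear receptor half-site AGGTCA and the androgen receptor half-site AGAACA. The CCAAT box was found 3 times in Adipoq, with first bases at -34, -27 and -7 from the start, and once in Plin4, at -18. It is found in 37.4% of all 32851 windows. TTGCNNAA, found in 10.8% of windows, was found in Lep at -55, in 1 of the Cidec windows at -198 and in Plin1 at -187 and -58. TATAAA (13.6% of windows), AGGTCA (16.3%) and AGAACA (19%) were found in none of the 9 windows. A match is a string of letters and not a measured binding event.

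Of the lipid-handling genes, Fabp4 and Plin4 lay above the array median on all arrays, and Plin4 was higher in the DLP, whereas the probe sets of Fabp4 disagreed on the lobes. Plin4, a perilipin of small droplets that is also known from muscle, read 2.62, 2.32, 2.52, 2.22 and 2.23 in the control VP and 2.81, 2.44, 2.87, 2.78 and 2.89 in the high fat VP. In the control DLP it read 3.45, 3.4, 3.46, 3.47 and 3.61, and in the high fat DLP 3.74, 3.57, 3.78 and 3.86. Every DLP array lay above every VP array. The DLP minus VP difference was 1.1 ± 0.1 (SE; 95% interval 0.89 to 1.3; 2.14-fold; limma adjusted p = 1.2e-08) on the control diet and 0.98 ± 0.1 (SE; 95% interval 0.76 to 1.19; 1.97-fold; limma adjusted p = 1.5e-07) on the high fat diet. Exact two-sided permutation tests gave p = 0.0079 and p = 0.016, the smallest that 5 against 5 and 5 against 4 arrays allow. In all, 10 such permutation tests were made, on the 5 probe sets of Car3, Plin4 and Fabp4 described here.

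By diet, Plin4 went the other way from Car3. Its mean was 2.38 ± 0.18 in the control VP and 2.76 ± 0.19 in the high fat VP (SD, n = 5 each), a difference of 0.38. In the DLP the means were 3.48 ± 0.08 (SD, n = 5) and 3.74 ± 0.12 (SD, n = 4), a difference of 0.26. The diets overlapped in both lobes. On control VP 4, where Car3 was highest in the VP, Plin4 was the lowest of the 5 control VP arrays (2.22).

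For Fabp4, the fatty acid carrier, the answer on the lobes depended on the probe set. The brightest probe set read 5.01, 4.94, 4.93, 5.43 and 4.88 in the control VP and 4.52, 4.74, 5, 4.89 and 4.9 in the high fat VP. In the control DLP it read 4.44, 4.09, 3.62, 4.69 and 4.46, and in the high fat DLP 4.07, 4.27, 4.28 and 4.46. Within each diet every DLP array lay below every VP array. The DLP minus VP difference was -0.78 ± 0.16 (SE; 95% interval -1.11 to -0.45; 1.72-fold lower; limma adjusted p = 0.0003; exact permutation p = 0.0079) on the control diet. On the high fat diet it was -0.54 ± 0.17 (SE; 95% interval -0.88 to -0.19; 1.45-fold lower; limma adjusted p = 0.01; exact permutation p = 0.016).

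The other probe set of Fabp4 above the median on all 19 arrays went the opposite way. It read 2.81, 2.82, 2.83, 3.22 and 3.61 in the control VP and 3.68, 3.32, 2.9, 4.16 and 3.39 in the control DLP, which overlapped. In the high fat VP it read 2.97, 2.48, 2.74, 3.06 and 2.71, all below the 3.74, 3.33, 3.67 and 3.33 of the high fat DLP. Its DLP minus VP difference was 0.43 on the control diet (exact permutation p = 0.14) and 0.72 on the high fat diet (exact permutation p = 0.016). With the mean of the Fabp4 probe sets the lobe differences were -0.11 and -0.04 (limma adjusted p = 0.37 and 0.8), so no direction of Fabp4 between the lobes can be given from these arrays.

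The diet differences of Fabp4 were small on both of these probe sets. On the brightest the means were 5.04 ± 0.22 in the control VP and 4.81 ± 0.18 in the high fat VP (SD, n = 5 each), a difference of -0.23. In the DLP they were 4.26 ± 0.42 (SD, n = 5) and 4.27 ± 0.16 (SD, n = 4), a difference of 0.01. On the second the differences were -0.26 and 0.03. The diets overlapped in each case. Both probe sets had their highest control DLP value on array 4 (4.69 and 4.16), and the brightest also its highest control VP value (5.43).

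Of the 3 genes past the filter, 2 were called between the lobes on each diet, Plin4 as higher in the DLP and Fabp4, on its brightest probe set, as lower. This stands against a background in which 55% of all 11728 genes were called between the lobes on the control diet (28.2% higher and 26.8% lower in the DLP) and 52.9% on the high fat diet (26.8% higher and 26.1% lower). A called lobe difference is thus common among all genes.

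Cidec, which promotes the growth of large droplets, and Pck1 stayed below the array median on all 19 arrays. The means of Cidec were 0.94 ± 0.31 in the control VP, 0.7 ± 0.36 in the high fat VP, 0.63 ± 0.25 in the control DLP and 0.74 ± 0.37 in the high fat DLP (SD, n = 5, 5, 5 and 4), with values from 0.26 to 1.21. The means of Pck1 were 1.06 ± 0.33, 0.89 ± 0.4, 0.98 ± 0.15 and 0.85 ± 0.25 in the same order, with values from 0.48 to 1.38. The diet differences were -0.25 in the VP and 0.11 in the DLP for Cidec, and -0.17 and -0.13 for Pck1. All groups overlapped. With no filter on low values, over 18193 genes, the DLP minus VP differences of Adipoq, Retn, Lep, Cidec and Pck1 ran from -0.31 (Cidec, control diet, 95% interval -0.71 to 0.09) to 0.16 (Retn, high fat diet, 95% interval -0.3 to 0.63), with limma adjusted p from 0.23 to 0.96.

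On single arrays, Car3, Adipoq and the brightest probe set of Fabp4 were each the highest of their group on the control arrays numbered 4. Adipoq was near the array median of 1.85 on them (1.91 in the VP and 1.81 in the DLP). The second Fabp4 probe set was highest in the control VP on array 5 (3.61, against 3.22 on array 4). Plin4 and Cidec were not the highest of their groups on the control arrays numbered 4. On control VP 4, 3 of the 8 genes were the highest of their group (Car3, Adipoq and Fabp4), and on control DLP 4 there were 5 (the same 3 with Retn and Lep). Among the high fat arrays, VP 5 held 4 group maxima (Car3, Lep, Plin4 and Pck1) and DLP 1 also held 4 (Car3, Cidec, Lep and Pck1). The summed linear level of the 8 genes was 65 on control VP 4, against a control VP median of 45.9 and a lowest value of 40.6. It was 57.5 on control DLP 4, against a control DLP median of 40.7 and a lowest value of 28.8. A linear sum follows mainly the brightest genes. On these 2 arrays they were Fabp4 (5.43 and 4.69) and Car3 (3.79 and 4.05), so the sum says little of the other members. The high fat arrays summed to 33.7 to 44.3 in the VP and 35.7 to 40.5 in the DLP. The labels do not say whether the 2 arrays numbered 4 came from the same mouse.

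Deviations from the group means were set against those of Car3 over the 19 arrays, as a description. The correlation was 0.71 for Adipoq (Spearman 0.38) and 0.66 for Fabp4 (Spearman 0.47). Without the 2 control arrays numbered 4 it was 0.1 for Adipoq and 0.36 for Fabp4 over 17 arrays, so that the likeness of Adipoq to Car3 rested on those 2 arrays. Over 19 arrays Lep had 0.23, Retn 0.14, Cidec 0.13, Pck1 0.08 and Plin4 -0.09. Over the 17 arrays Lep had 0.48, the highest of the members, Pck1 0.18, Cidec 0.14, Plin4 0.14 and Retn -0.19. The points share the array, and levels near the background add noise to Adipoq, Retn, Cidec, Lep and Pck1.

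**Figure D3:**
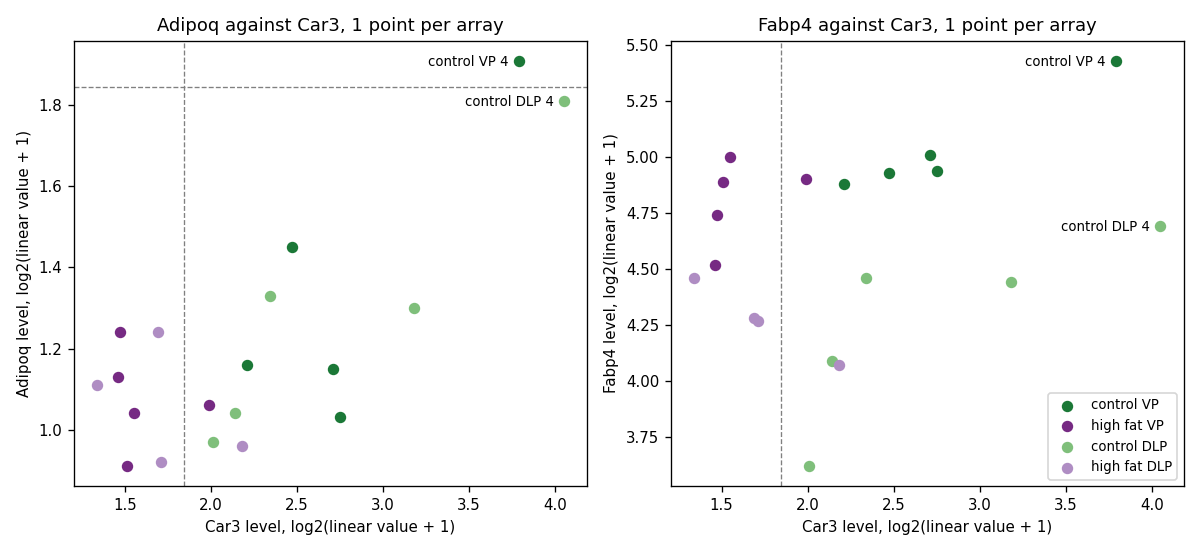
The log2 levels of Adipoq and of Fabp4 (y axes) are plotted against that of Car3 (x axis), 1 point per array, coloured by group, with text labels at the control arrays numbered 4. Those 2 arrays have the highest Car3 (3.79 and 4.05) and the highest Adipoq (1.91 and 1.81), and over the other 17 arrays the correlation of the deviations is 0.1 for Adipoq and 0.36 for Fabp4.

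Among all genes past the filter, the 8 most like Car3 by the same measure were Arrdc3 (r = 0.86), Copb1 (0.81), Rnf113a2 (0.79), 2610301B20Rik (0.79), Slf1 (0.78), Errfi1 (0.78), Lrrc14 (0.78) and Nsun3 (0.75), over 19 arrays. None of them is on the fat lists below. Arrdc3, an arrestin-domain protein, was at 6.66 on control VP 4 and 5.51 on control DLP 4, against 5.52 on the highest of the other 17 arrays. The 8 genes most like the mean of the other measured members were Tmem86a (0.83), Prr13 (0.79), Llgl1, Jak1, Slc44a1 and Coro7 (0.78 each), Usp47 (0.77) and Clip1 (0.75). Gpx3, a secreted glutathione peroxidase also made by fat cells, had its highest control VP level on array 4 (7.53, against 6.61 to 6.97 on the other 4), but in the control DLP its level on array 4 (7.14) was the second lowest of 5.

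Markers of other cell types were measured on the same arrays. The summed level of 20 striated muscle genes was 126 on control VP 4, within a control range of 121 to 155. On control DLP 4 it was 136, the lowest of its control range of 136 to 159. Of the 20 genes, 9 never lay above the array median, with Myh7, Myh4, Tnni1, Ttn and Neb among them. Others did, with Acta1, Tnnc2 and Eno3 above it on 19 arrays, Tnnt1 on 12, Myh2 on 10 and Ckm on 9. Much of the summed level comes from Acta1, whose group means were 6.03 to 6.35. The part of muscle in the Car3 values was not tested. Of 6 liver genes, 5 never lay above the median, and the sums on control arrays 4 were 12.5 in the VP (control range 10.9 to 14.7) and 4.95 in the DLP (4.95 to 6.84). Of 9 brown fat genes, 6 never did, Ucp1 and Cidea among them. The sum of 6 endothelial genes was 23.9 on control VP 4, the highest of the control VP (15.7 to 23.9), and 24.3 on control DLP 4, the median of its group (20.4 to 32.2). The part of endothelium in the Fabp4 values was not tested. Macrophage sums on these arrays were 188 and 174, and sums of 8 adipose stromal genes 66.9 and 124, each inside its control group's range (136 to 208 and 141 to 197; 64.7 to 109 and 105 to 137). Sums of 6 prostate epithelium genes were 5260 and 20000, within control ranges of 2740 to 12300 and 18700 to 20100.

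By diet, the muscle, liver and endothelial sums overlapped. Muscle sums were 121 to 155 in the control VP and 133 to 175 in the high fat VP, and 136 to 159 and 145 to 179 in the DLP. Liver sums were 10.9 to 14.7 and 9.22 to 17.6 in the VP. Endothelial sums were 15.7 to 23.9 and 16.5 to 23 in the VP, and 20.4 to 32.2 and 23.8 to 26.4 in the DLP. By limma, no gene of the muscle, liver, endothelial, macrophage or adipose stromal lists was called by diet in either lobe, where 1.11% of all genes were called in the VP and 0% in the DLP, so that 0 calls in lists of this size is near the background. Whether attached fat contributed to Car3 was not tested. Of the 8 measured members, Fabp4 and Plin4 lay above the array median on all 19 arrays, Adipoq on control VP 4 alone, and Lep, Retn, Cidec and Pck1 on none.

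Car3 belongs to a family of enzymes that interconvert carbon dioxide and bicarbonate, and 15 other members were measured. Of these, 8 passed the filter, and 4 were called between the lobes on the control diet and 3 on the high fat diet, against 55% and 52.9% of all genes. Between the lobes of control mice, Car2 (the widespread cytosolic form, 1.7 ± 0.17 SE; 3.25-fold; limma adjusted p = 5.4e-08) and Car11 (0.73; 9.4e-05) were higher in the DLP. Car8 (-2.01 ± 0.26 SE; limma adjusted p = 2.3e-06; its DLP means of 1.65 and 1.81 lay below the array median, so no fold is given) and mitochondrial Car5b (-0.41; 0.0089) were lower there. On the high fat diet Car2 (1.06), Car11 (1.05) and Car8 (-1.28) were called in the same directions, and Car5b was not (-0.31; limma adjusted p = 0.054). Car8 and Car11 are related proteins known to lack the enzyme activity.

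By diet in the VP, where 1.11% of all genes were called, 1 of the 8 passed. It was Car2, with 4.86 ± 0.22 in the control and 5.58 ± 0.52 in the high fat group (SD, n = 5 each), a rise of 0.72 ± 0.17 (SE; limma adjusted p = 0.043), opposite in sign to Car3. This call was lost in most alternatives, with adjusted p up to 0.29 when the VP arrays alone were fitted, and in each fit that left out 1 array except those without control VP 4 or high fat VP 1. Like the other lists, this family was chosen with earlier results of these data known, so the p-values of Car2 are not independent support. In the DLP none of the 8 passed by limma. Means of Car4, the membrane-bound form of capillaries, were 1.16 ± 0.11 and 0.84 ± 0.13 in the VP and 1.17 ± 0.15 and 1.24 ± 0.21 in the DLP, all below the median. Car1, Car5a, Car6, Car9, Car10 and Car13 also lay below the median on every array.

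**Figure D4:**
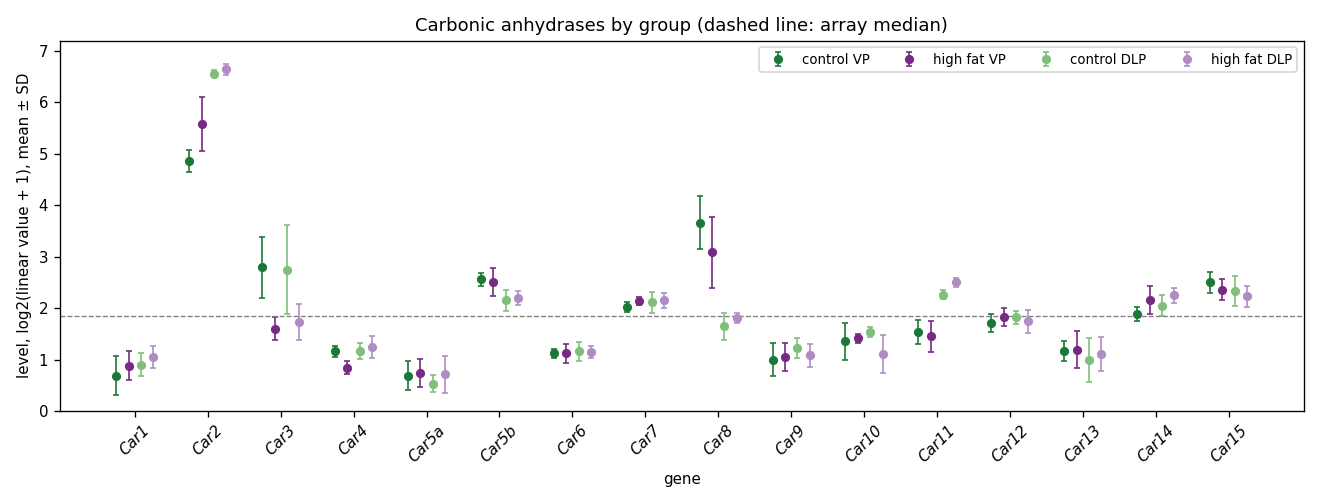
Log2 levels (y axis) of 16 carbonic anhydrase genes (x axis) are drawn as group mean ± SD for the 4 groups, with the array median of 1.85 as a dashed line. Car3 is the gene whose 2 high fat means (1.6 and 1.73) lie below the line while both control means (2.79 and 2.75) lie above it, and Car2 and Car8 differ between the lobes.

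Other genes of the fat cell's pathways were tested from lists, again against the background of 55% and 52.9% of genes called between the lobes. Of 12 tested regulators and receptors, 3 were higher in the DLP on the control diet and 0 lower. They were the adiponectin receptors Adipor2 (1.44; limma adjusted p = 6.7e-13) and Adipor1 (0.56; 2.8e-05) and the activin-type receptor Acvr1c (0.62; 0.0032). On the high fat diet 4 were higher and 1 lower, Adipor2 (1.59), Adipor1 (0.77), the insulin receptor Insr (0.52; 0.00015) among the higher, and the transcription factor Cebpa (-0.57; 0.0019) as lower. The receptors for adiponectin were thus well above the median on these arrays, while its gene was not.

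Of 10 tested lipid droplet and lipolysis genes, 4 were higher and 2 lower in the DLP on each diet. On the control diet the lipase genes Mgll (1.58; limma adjusted p = 1.5e-06), Lipe (0.39; 0.0036) and the perilipin Plin3 (0.25; 0.0086) were among the higher, and the seipin gene Bscl2 (-0.5; 4.6e-05) was among the lower. On the high fat diet the differences were 1.44 for Mgll, 0.49 for Lipe, 0.51 for Plin3 and -0.5 for Bscl2. With the mean of probe sets, Lipe turned to -0.08 on the control diet and -0.15 on the high fat diet. Plin3 coats droplets in most cell types.

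Of 14 tested genes of triglyceride synthesis, 3 were higher and 5 lower in the DLP on the control diet, and 2 and 6 on the high fat diet. Lower were Gpam, the first step of glycerolipid synthesis (-0.9; limma adjusted p = 2.6e-09), and Gpd1, which makes glycerol phosphate (-1.0; 2.6e-07). Higher was Me1, malic enzyme (1.52; 1.9e-05). Among 7 tested uptake genes, 3 were higher and 2 lower on each diet, with Fabp5, the epidermal counterpart of Fabp4 (1.8; limma adjusted p = 1.3e-06) and the glucose transporter Slc2a4 (0.67; 0.00047) among the higher, and Slc27a1 (-0.66; 2.5e-05) and Cd36 (-0.69; 0.0011) lower on the control diet. Of 6 tested genes of proteins secreted by fat tissue, 2 were higher on each diet, Nampt on both (0.82; limma adjusted p = 1.1e-06 on the control diet). Of 2 tested brown fat genes both were lower on each diet, the coactivator Ppargc1a (-1.09; 3.6e-09) and the deiodinase Dio2 (-0.85; 3.1e-06).

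Pck1 was set beside the other genes of glucose synthesis. Of 3 tested, 2 were higher and 1 lower in the DLP on each diet, where 55% (control) and 52.9% (high fat) of all genes were called. The differences given here are those of the control diet. Fbp1, fructose bisphosphatase, was higher in the DLP (4.75, limma adjusted p = 3.4e-16). Its VP means of 0.97 and 1.22 lay below the median, so its fold is uncertain. The mitochondrial form of the same enzyme as Pck1, Pck2 (0.74; 1.5e-06), was higher and Pcx (-0.62; 7.6e-05) lower.

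By diet, the 6 fat lists gave 1 call in the VP and 0 in the DLP, where 1.11% and 0% of all genes were called. The call was Srebf1, a transcription factor of lipid synthesis, with 5.1 ± 0.14 in the control VP and 5.69 ± 0.19 in the high fat VP (SD, n = 5 each), a rise of 0.59 ± 0.08 (SE; limma adjusted p = 0.0032). When the VP arrays alone were fitted its adjusted p was 0.14. The lists were chosen with earlier results of these data known, so the p-values of Srebf1 are not independent support. Median diet differences of the lists ran from -0.18 to 0.06 in the VP and from -0.22 to 0.04 in the DLP, with a median of 0.01 over all genes in each. No gene of the fat cell regulators, the lipid droplet, the uptake, the secreted or the brown fat lists was called by limma in either lobe. With 1.11% and 0% of all genes called, 0 calls in lists of this size is near the background. At the looser threshold of an unadjusted p under 0.05 there were 1786 genes in the VP and 662 in the DLP among all 11728.

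**Figure D5:**
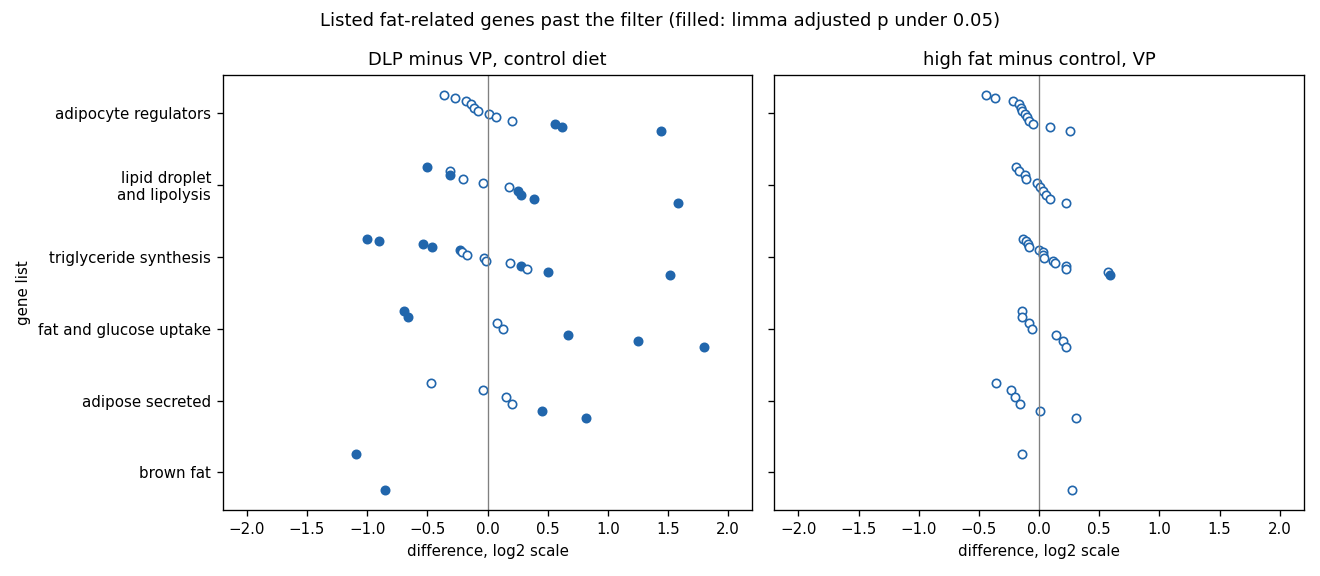
For the genes of 6 fat lists (rows grouped by list), the log2 difference is drawn for DLP minus VP on the control diet and for high fat minus control in the VP, with filled symbols for a limma adjusted p under 0.05. Filled symbols are common for the lobes, and Srebf1 is the filled symbol for the diet.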

How the data were processed

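Arrays of total RNA from mouse VP and DLP lobes were used. The authors' deposited table holds 1 value per probe set and array, taken as log10 with values from 0 to 3.99 and a median of 0.555, with MAS5 named as a tool per the submitters' processing notes. The log base, the offset (taken as 1) and the step that made the sorted values identical are not given in the sources used here. These deposited log10 values were converted to log2(linear value + 1), with no further normalization.

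Of 45101 probe sets, 64 controls were left out, and 34945 others had 1 gene symbol, 932 several and 9160 none. Symbols were updated through gene identifiers for 34741, from a GRCm38.p6 table used for names and promoters. A probe set was kept where it lay above its array's median on at least 4 arrays (24867 kept), and the one with the highest mean stood for its gene (11728 genes). The lmFit and trended eBayes functions of limma 3.58.1 (R 4.3.3) fitted 4 group means to 19 arrays, two-sided, with Benjamini-Hochberg adjustment over all genes and a threshold of 0.05. Exact permutation tests used scipy 1.17.1. The fits were tested on simulated data.

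The genes and lists were chosen with earlier results of these data known. Named were the 10 genes, the carbonic anhydrases, up to 4 genes with the smallest p per list and comparison, and the genes most like Car3 or the other members. Pparg, Cebpb, Klf15, Ucp1, Cidea, Myh7, Myh4, Tnni1, Ttn, Neb, Acly and Gpx3 were named beyond this rule, after their values were seen. Pbsn and Tgm4 fall within the rule, but their use for the tissue labels was chosen after their values were seen. Alternatives changed the offset, the filter, the probe set rule, the arrays fitted, array weights and a replicate block, and left out each array. For the diet comparisons the replicate block was replaced by replicate number as a fixed factor.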

Additional observations from a re-analysis of the deposited data

Results flagged for a closer look

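In 32 groups of the 8 measured genes, 3 had an array far from the others of its group, measured as its gap to the nearest array over the group's range. Chance alone would flag about 1 in 20 such groups. The genes were proposed with high values on single arrays already known, so the 3 flags are a description and not a test. Car3 on high fat VP 5 was the highest of its group at 1.99, with the next array at 1.55, and it was the only high fat VP array with Car3 above the array median. Plin4 on high fat VP 2 was the lowest of its group at 2.44, with the next at 2.78. Fabp4 on control VP 4 was the highest of its group at 5.43, with the next at 5.01.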

How the results depend on the processing

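The 2 lobe calls among the members on each diet held in all alternatives but 1, the mean of probe sets, under which 1 was left on each diet (Plin4). Leaving out each array gave 2 to 2 calls on both diets, and the adjusted p of Fabp4 stayed between 9.2e-05 and 0.0012 on the control diet and between 0.0018 and 0.039 on the high fat diet. The Car3 diet difference in the VP was -1.19, with -0.30 at an offset of 16, -0.40 with the mean of probe sets, and -1.33 to -0.94 when each array was left out. In the DLP it ran from -1.2 to -0.69. Among the listed genes, Lipe turned to -0.08 and -0.15 and Acly on the high fat diet to 0.02 with the mean of probe sets. The count of all genes called by diet in the VP was 130. It was 78 with no filter, 209 with the filter at the 75th percentile, 40 with the mean of probe sets, 0 with only the groups compared (smallest adjusted p 0.0507), 47 with array weights and 79 without the control arrays numbered 4 in both lobes (an alternative chosen after seeing the data), and 70 to 148 when each array was left out. In the DLP it was 0, with 4 at an offset of 16, 1 with no filter, 5 with array weights and 0 to 2 when each array was left out. Lobe counts over all genes ran from 6099 to 6584 on the control diet and from 5640 to 6411 on the high fat diet when each array was left out, and over all alternatives from 4697 (filter at the 75th percentile) to 6786 (no filter) and from 4643 (the same filter) to 6771 (array weights). The arrays numbered alike in the 2 lobes were not treated as pairs, since 4 of 9 pairs had a correlation of deviations over 0.1 (range -0.07 to 0.19). Whether they share a mouse is not settled by this. With the replicate block the members' calls stayed at 2 and 2, and the counts over all genes were 6549 and 6300 between the lobes. For the diets, replicate number was instead a fixed factor shared by all groups, which gave 93 (VP) and 0 (DLP). Signal over background limits Adipoq, Retn, Lep, Cidec and Pck1, whose levels lie in the lower part of the array, and the number of arrays limits the precision of all values.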

Other observations

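Some genes of the seminal vesicle, a gland that adjoins the prostate, were high on 1 high fat array in each lobe. Of 6 such genes, 5 lay above the array median on high fat VP 2 and 3 on high fat DLP 1. A linear sum follows mainly the brightest genes, here too. The summed level of 6 such genes was 109 on high fat VP 2, against 2.21 to 11.6 on the other 4 high fat VP arrays and 2.27 to 5.68 in the control VP. It was 34.5 on high fat DLP 1, against 4.49 to 6.48 on the other 3, and 3.37 to 12.1 in the control DLP. High fat DLP 1 was also the high fat DLP array with the highest Car3 (2.18), whereas on high fat VP 2 Car3 was at 1.47, inside the range of its group. The part of seminal vesicle tissue in any of these values was not tested.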
